A study of Mus musculus with 12 samples.

Results

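AP-1 is a family of paired transcription factors built from Fos and Jun proteins. Several of its genes, together with Egr1, Ier2 and Ier3, belong to the immediate early genes, whose transcripts appear shortly after a cell meets a growth factor or a stress. The 10 genes described here are Fos, Fosb, Fosl1, Fosl2, Jun, Junb, Jund, Egr1, Ier2 and Ier3. They were taken by name, with every probe set (a group of array probes for the same transcript) that carries the name of that gene and of no other. This gave 14 of the 45037 probe sets that are not array controls, and 10 of 18193 genes. Fosl1, Fosl2, Jun and Jund had 2 probe sets each and the other members 1. A gene with several is represented by its brightest probe set, and the other is given beside it. Brightness is the mean over all 12 arrays, carcinomas included. In normal liver alone the other probe set was the brighter one for Fosl2 (mean log2 level 8.01 against 7.30) and Jun (8.93 against 8.70). For these 2 genes the choice therefore rested on the levels in the carcinomas, and it favoured the larger difference.

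The carcinoma group held 6 spontaneous hepatocellular carcinomas (HCC), and the control group held 6 normal livers. Both came from untreated 2-year-old mice of the B6C3F1 hybrid (a C57BL/6 by C3H cross), held in bioassays of the National Toxicology Program. No transgene, deletion or agent is named for either group, and the labels give neither sex nor batch. Each tissue piece was measured on 1 single-colour Affymetrix array, and the labels do not say outright that each piece came from a separate mouse, so the p-values measure the spread between these 12 samples. Deposited medians were from 101.7 to 111.2 in HCC and from 92.4 to 114.3 in normal liver. Levels are given as log2(intensity + 16) after quantile normalization, a scale with a floor of 4 that understates the change of dim genes.

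A Fos protein works only when joined to a Jun protein through a leucine zipper, while Jun proteins can also pair with each other. The pair binds AP-1 elements in DNA, and the makeup of the pair changes which genes are switched on and how strongly. Transcription of Fos and Egr1 is raised by ERK signalling through serum response factor and the ternary complex factors of the Elk family, and Jun protein is activated by JNK. In mouse liver these genes are known for their fast, short rise after partial removal of the organ, and Jun is needed there for normal regrowth.

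In HCC 7 of the 10 genes were higher and none was lower. Ier3 was 10.3-fold and Egr1 8.34-fold higher in HCC than in normal liver, and Fos, Jun, Fosl2 and Junb between 3.10-fold and 4.76-fold. Fosl2 and Jun are counted here by the probe set that is brighter over all arrays, not the one brighter in normal liver. By its other probe set Fosl2 did not pass, and Jun was 2.12-fold higher. Ier2 was higher by 1.61-fold, close to the threshold. Fosb, Fosl1 and Jund did not pass the test. In whole tissue, more cells that express a gene and more RNA per cell cannot be told apart. limma was used across all 45037 probe sets, with a Benjamini-Hochberg adjusted p under 0.05 as the threshold. By that rule 5.27% of all genes were higher in HCC and 5.49% lower, and at an unadjusted p under 0.05 12.5% were higher and 15% lower. The count of 0 lower members was also 0 at an unadjusted p under 0.05 and by exact permutation with adjustment over all probe sets. By exact permutation 6 members were higher, and the gene lost was Ier3. Of the 14 probe sets 8 were higher, against 4.38% of all probe sets (3.95% were lower). The median log2 difference of the 10 genes was 1.68, against -0.04 over all genes. In 5 of the 10, Fos, Fosl2, Jun, Egr1 and Ier2, all 6 HCC lay above all 6 normal livers, against 4.25% of all genes. Fosl2 is among them by its brighter probe set only. The 10 genes were chosen with earlier results of these data known. Their counts and median, set beside those of all genes, are therefore no independent test of an excess.

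RefSeq promoter windows, from 250 bases before a transcript start to 50 after it (GRCm38.p6), were held for 7 of the 10 genes and were searched for short motifs on both strands. The windows of Fos, Jun and Ier3 are shown because these genes rose, and that of Fosb because this paralogue of Fos did not pass. Capitals mark the CRE-type core TGACG, the Jun-type AP-1 element TGACATCA, the CCAAT box CCAAT, the TATA box TATAAA and the GC box GGGCGG, as read on either strand. Positions are counted from the start, which is base 1, with no base 0.
Fos, chr12:85473640-85473939, plus strand: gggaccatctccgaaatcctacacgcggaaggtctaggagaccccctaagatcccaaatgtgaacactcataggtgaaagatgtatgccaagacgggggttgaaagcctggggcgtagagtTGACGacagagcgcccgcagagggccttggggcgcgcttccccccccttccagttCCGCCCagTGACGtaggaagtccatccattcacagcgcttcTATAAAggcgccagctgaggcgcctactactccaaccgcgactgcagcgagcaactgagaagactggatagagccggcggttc
Fosb, chr7:19309996-19310295, minus strand: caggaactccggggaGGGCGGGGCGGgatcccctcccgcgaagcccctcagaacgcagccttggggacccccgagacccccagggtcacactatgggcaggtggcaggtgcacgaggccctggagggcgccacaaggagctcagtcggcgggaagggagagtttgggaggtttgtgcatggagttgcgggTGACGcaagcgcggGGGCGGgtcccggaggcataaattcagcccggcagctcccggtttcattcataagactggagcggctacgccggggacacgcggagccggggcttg
Jun, chr4:95052173-95052472, minus strand: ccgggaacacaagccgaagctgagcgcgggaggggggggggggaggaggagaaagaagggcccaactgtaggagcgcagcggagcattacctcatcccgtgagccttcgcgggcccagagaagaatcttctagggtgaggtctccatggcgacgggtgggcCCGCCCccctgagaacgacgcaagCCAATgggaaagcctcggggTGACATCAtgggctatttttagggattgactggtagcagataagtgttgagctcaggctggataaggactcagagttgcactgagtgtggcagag
Ier3, chr17:35821463-35821762, plus strand: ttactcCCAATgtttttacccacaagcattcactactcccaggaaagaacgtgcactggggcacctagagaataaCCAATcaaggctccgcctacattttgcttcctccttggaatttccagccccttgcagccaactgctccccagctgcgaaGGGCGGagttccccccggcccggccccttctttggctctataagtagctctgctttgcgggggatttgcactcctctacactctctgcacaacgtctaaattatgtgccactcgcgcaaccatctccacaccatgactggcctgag

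The CRE-type core lay at -129 and -66 in Fos, at -60 in Fosb and at -106 in Junb, so that 3 of the 7 windows held it, against 20.9% of all 32544 windows. The TATA box letters TATAAA began at -33 in Fos but at 1, on the annotated start itself, in Junb (13.6% of all windows held them). Jun, Junb and Ier3 held the CCAAT box (37.4%). The Jun-type element was found in Jun alone, at -45, and in 3.37% of all windows. The GC box was in 5 of the 7, Fos, Fosb, Fosl2, Jun and Ier3, against 35.9% of all windows. No window of the 7 held the full CRE TGACGTCA (1.8% of all), the AP-1 element TGAGTCA (5.19%) or the CArG box bound by serum response factor (1.64%). Bases outside the windows were not searched, and neither were the promoters of Egr1, Fosl1 and Ier2. The search therefore does not show that these genes lack such sites. Motifs that share letters, such as the core and the full CRE, were counted separately. Fos, which rose, and Fosb, which did not pass, shared the CRE-type core and the GC box.

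**Figure D1:**
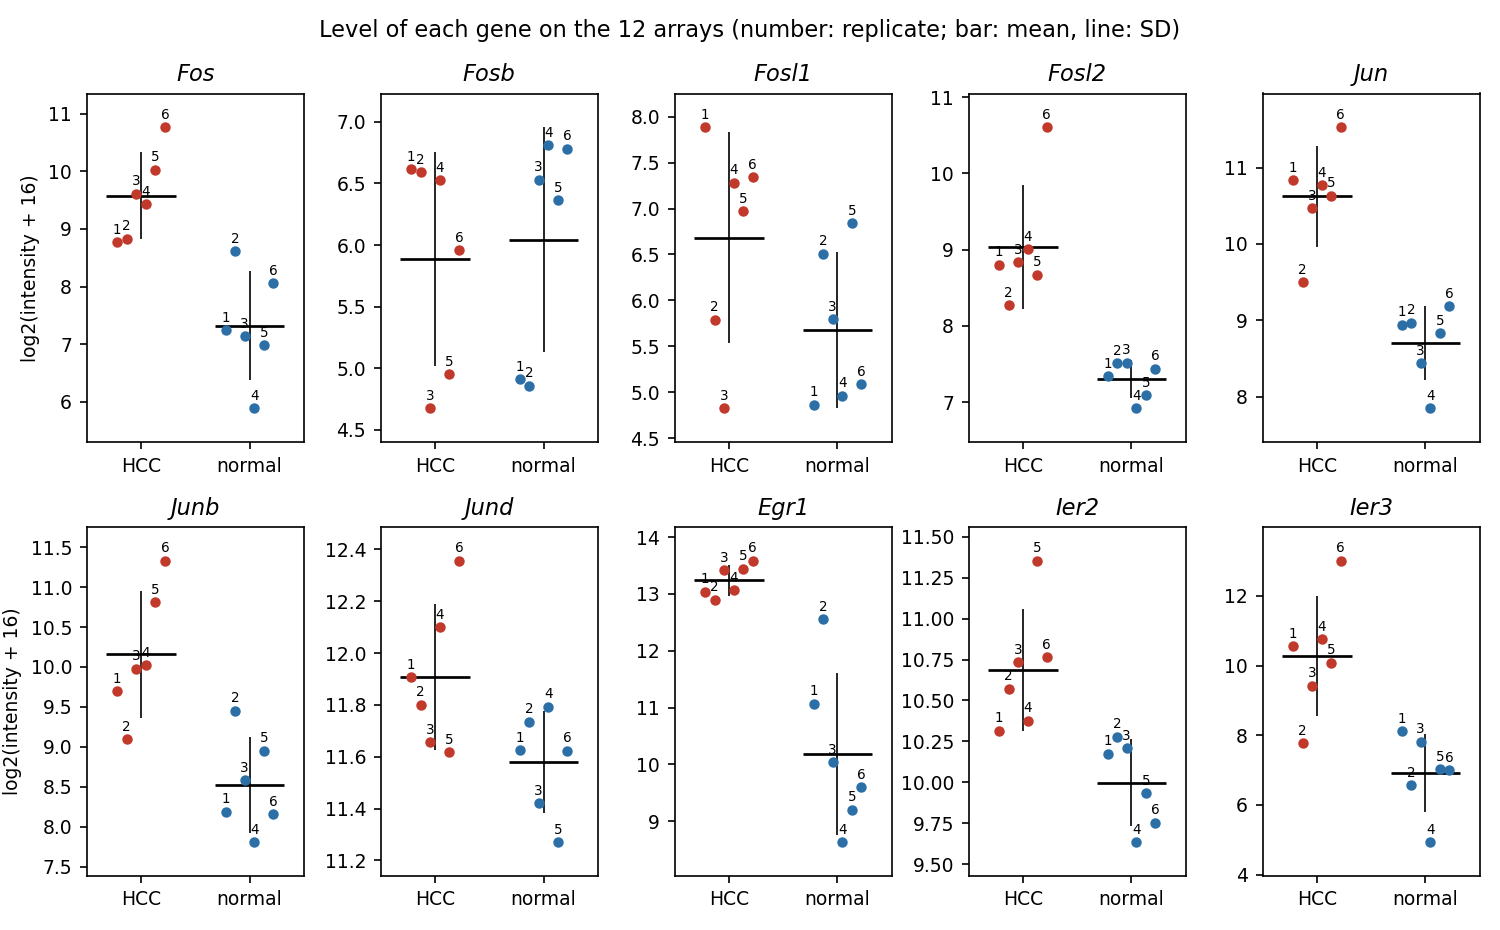
Level of the 10 genes on each of the 12 arrays, as log2(intensity + 16) with a separate vertical axis for each gene, HCC in red and normal liver in blue. The number beside a point is the replicate, the bar is the mean and the line is the SD (n = 6 per group). HCC 6 was the highest carcinoma in 7 of the 10 genes, and normal 4 the lowest normal liver in 7.

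In the Fos family, Fos itself, the founding member of AP-1, was at log2 levels of 8.77 at the lowest, 9.52 at the median and 10.77 at the highest in HCC. In normal liver the same values were 5.88, 7.19 and 8.61. The groups did not overlap, although normal 2 lay just below HCC 1 and HCC 2. Carcinomas averaged 9.57 ± 0.76 and normal livers 7.32 ± 0.94 (SD, n = 6 each), a log2 difference of 2.25 ± 0.45 (SE, limma adjusted p = 0.00853). In deposited intensity, Fos ran from 441 to 1764 in HCC and from 42.5 to 382 in normal liver.

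Fosl2, which encodes Fra-2, was at 8.27, 8.82 and 10.61 (lowest, median and highest log2 level) in HCC and at 6.92, 7.39 and 7.52 in normal liver by its brighter probe set. All carcinomas lay above all normal livers, and HCC 6 stood apart at the top. The log2 difference was 1.73 ± 0.32 (SE, limma adjusted p = 0.00619), and 1.42 without HCC 6 (adjusted p = 0.00108). The dimmer probe set averaged 7.88 ± 0.33 over carcinomas and 8.01 ± 0.30 over normal livers (SD, n = 6 each), with a log2 difference of -0.13 (95% interval from -0.55 to 0.30, limma adjusted p = 0.759). The rise of Fosl2 therefore rests on 1 of its 2 probe sets. The transcript regions they cover were not analysed here.

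The other Fos family members were dim. Fosb, a Fos paralogue with its own short splice form, had deposited intensities from 9.96 to 82.9 in HCC and from 13.98 to 93.5 in normal liver. Its log2 level averaged 5.89 ± 0.87 in HCC, against 6.04 ± 0.91 in normal liver (SD, n = 6 each). The difference of -0.16 had a 95% interval from -1.16 to 0.85 and an adjusted p of 0.886 (limma), and turned positive without HCC 3 (0.085) and without HCC 5 (0.029). Fosl1, which encodes Fra-1, was at 4.82, 7.13 and 7.89 in HCC and at 4.86, 5.44 and 6.84 in normal liver (lowest, median and highest log2 level). Here 4 carcinomas lay above every normal liver and HCC 3 below every one of them. The difference of 1.01 ± 0.52 did not pass (SE, 95% interval from -0.12 to 2.13, limma adjusted p = 0.275), nor did that of its second probe set, 0.35 (adjusted p = 0.426), whose levels lay near the floor.

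In the Jun family, Jun, the main partner of Fos, was at log2 levels of 9.503, 10.70 and 11.53 (lowest, median and highest) in HCC and at 7.85, 8.89 and 9.18 in normal liver by its brighter probe set. The groups did not overlap. The log2 difference was 1.92 ± 0.31 (SE, limma adjusted p = 0.00274). The dimmer probe set gave a smaller difference of 1.09 ± 0.16 (SE, limma adjusted p = 0.00151), also without overlap (means of 10.02 ± 0.19 for carcinomas and 8.93 ± 0.25 for normal livers, SD, n = 6 each). Both probe sets of Jun thus passed in the same direction, at 3.78-fold and 2.12-fold.

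Junb, which can replace Jun in the pair and drives many targets less strongly, was at 9.10, 10.003 and 11.33 (lowest, median and highest log2 level) in HCC and at 7.81, 8.39 and 9.45 in normal liver. The groups overlapped only through HCC 2, which lay below normal 2. The log2 difference was 1.63 ± 0.37 (SE, limma adjusted p = 0.018). Jund, the Jun protein present at a steady level in many resting tissues, averaged 11.91 ± 0.28 in HCC, against 11.58 ± 0.20 in normal liver (SD, n = 6 each). Its difference of 0.33 did not pass (95% interval from -0.03 to 0.69, limma adjusted p = 0.262). Its dim second probe set was at -0.32 (adjusted p = 0.584). The differences between family members were not tested against each other.

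Egr1, a zinc finger factor that binds GC-rich sites, was at log2 levels of 12.90, 13.24 and 13.58 (lowest, median and highest) in HCC and at 8.63, 9.82 and 12.55 in normal liver. All carcinomas were high and close together, with an SD of 0.27, while the normal livers spread over an SD of 1.42. Normal 2 reached 12.55 and normal 1 reached 11.07, and the other 4 normal livers lay between 8.63 and 10.03. In deposited intensity, the carcinomas ran from 7537 to 10689 and the normal livers from 344 to 5914. The log2 difference was 3.06 ± 0.53 (SE, limma adjusted p = 0.00406), and 3.53 without normal 2 (adjusted p = 0.000307).

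Ier3, an early response protein of the ERK and stress pathways that acts on cell survival, had the largest difference of the 10 genes and also the largest SD among carcinomas (1.72). It was at log2 levels of 7.78, 10.32 and 13.01 (lowest, median and highest) in HCC and at 4.94, 7.01 and 8.13 in normal liver. HCC 6 was the highest, HCC 2 lay below normal 1 and normal 3, and the other 5 carcinomas lay above every normal liver. The log2 difference was 3.36 ± 0.74 (SE, limma adjusted p = 0.0152), and it did not pass by exact permutation (adjusted p = 0.0629). Ier2, a small nuclear protein of the early response, was at 10.32, 10.65 and 11.35 in HCC and at 9.64, 10.05 and 10.28 in normal liver. The groups did not overlap, but HCC 1 was only just above normal 2. The log2 difference was 0.69 ± 0.20 (SE, limma adjusted p = 0.0496), and leaving out any 1 array other than HCC 1 ended the call, with an adjusted p of up to 0.103.

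**Figure D2:**
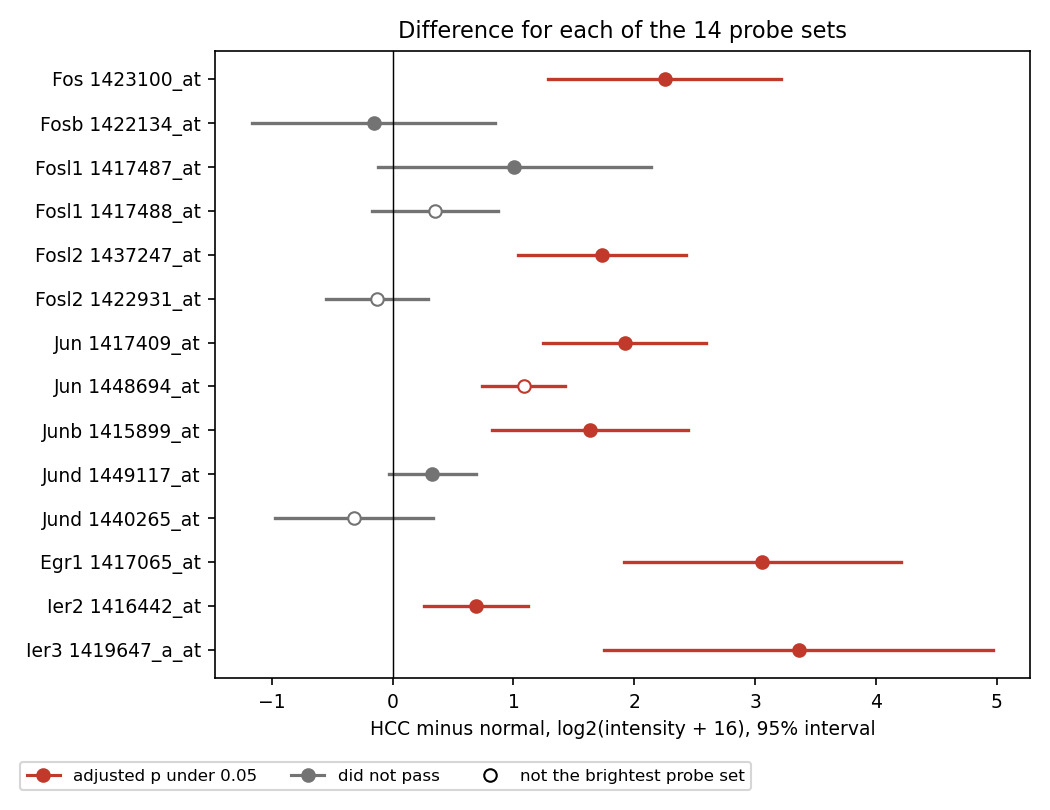
Log2 difference, HCC minus normal liver, of each of the 14 probe sets with its 95% interval from limma. Red marks an adjusted p under 0.05 and an open point a probe set that is not the brightest of its gene. Both Jun probe sets passed, while for Fosl2 the brighter probe set passed at 1.73 and the dimmer lay at -0.13.

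The same arrays stood at the ends for most of the genes. Among the 7 genes past the test, HCC 6 was the highest carcinoma in 6 and HCC 2 the lowest in 5. Among normal livers, normal 4 was the lowest in 7 of the 7 and normal 2 the highest in 4. Averaged over the 10 genes, HCC 6 lay 2.501 above the mean of normal livers on the log2 scale, HCC 2 lay 0.89 above it, and the other carcinomas from 1.14 to 1.71. Normal livers ran from -0.70 in normal 4 to 0.48 in normal 2. In HCC 1, HCC 4 and HCC 6, 9 of the 10 genes lay above all normal livers. HCC 5 had 8 such genes, HCC 3 had 7 and HCC 2 had 6. HCC 3 also had 2 genes, Fosb and Fosl1, below all normal livers. The share of all genes that lay outside the normal livers on a single array was not counted. Nor was how often each array was the highest or lowest of its group over all genes. These counts and ranks therefore have no background beside them. HCC 6 also had the highest mean relative to normal liver for other immediate early genes (1.05) and reported AP-1 target genes (1.94). For heat shock genes it did not (0.29, against 0.65 in HCC 1). Without HCC 6 there were 6 genes past the test, as without normal 4, and in both cases the gene lost was Ier2. Ier2 was also lost without any other array except HCC 1, so its loss is not particular to these arrays.

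**Figure D3:**
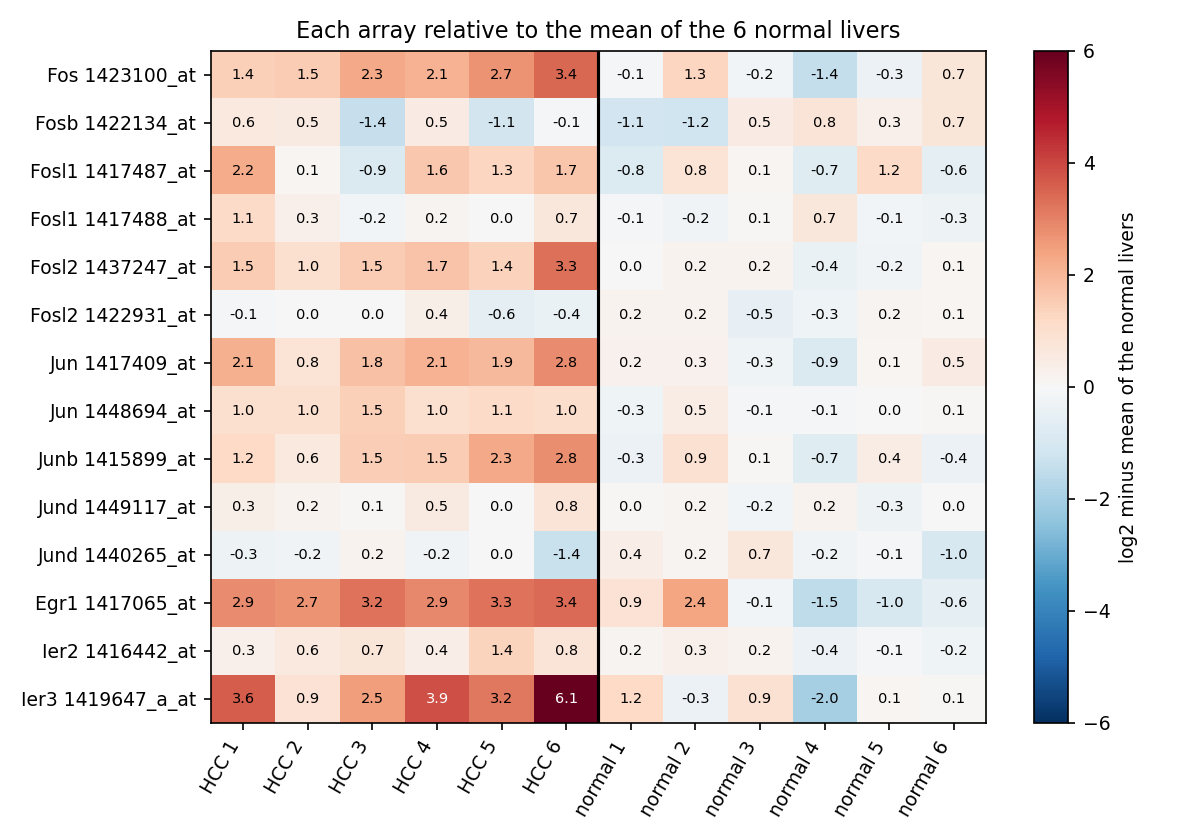
Each of the 14 probe sets (rows) on each of the 12 arrays (columns), as the log2 level minus the mean of the 6 normal livers. Red is above that mean and blue below it. Ier3 in HCC 6 was the largest value, and normal 4 was blue in all 7 genes past the test.

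The carcinomas differed widely in Glul (glutamine synthetase, a target of beta-catenin), with log2 levels from 14.62 to 15.17 in HCC 1, HCC 4 and HCC 6 and from 11.40 to 12.03 in HCC 2, HCC 3 and HCC 5, against 13.29 to 14.33 in normal livers. Signal of the Y-linked Eif2s3y, Kdm5d and Uty was present in 4 HCC and 4 normal livers, and not in HCC 1, HCC 4, normal 1 and normal 3. In all 7 genes past the test HCC was above normal liver on both sides of that split. The 7 were picked on these same arrays, so their direction in each part is no separate support. Among the arrays with Y-linked signal, 1 of the 10 genes passed, Egr1 at 3.34 (limma adjusted p = 0.0487), against 2.28% of all genes higher by that rule. The 7 genes past the test on all arrays were higher there at an unadjusted p under 0.05, as were 10.3% of all genes (12.3% were lower). Among the 2 and 2 without it, none passed with limma. At an unadjusted p under 0.05, 7 were higher, with Fosl1 in place of Ier2, against 7.14% of all genes (8.53% were lower). Ier2 was at 0.96 with Y-linked signal and 0.16 without it, and that difference was not tested.

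Of 29 other immediate early genes, 5 were higher in HCC and none lower (at an unadjusted p under 0.05, 11 higher and 2 lower, and by exact permutation 5 and 0, with Mcl1 in place of Myc). The small Maf protein gene Maff averaged 8.71 ± 0.78 in HCC, against 5.91 ± 0.87 in normal liver (SD, n = 6 each), a log2 difference of 2.80. Btg2, a brake on cell division, averaged 12.09 ± 0.65 in HCC, against 9.32 ± 0.69 in normal liver, a difference of 2.77, and the zinc finger factor Klf6 rose by 1.90 (limma adjusted p from 0.000671 to 0.00205 for these 3). Ier5 at 1.29 (1 of its 3 probe sets passed) and Myc at 1.22 are named after their values were seen, and Myc kept its call only without HCC 2 or without normal 5 among the fits that left out 1 array (adjusted p up to 0.0912). Also chosen after their values were seen, the widely used immediate early markers Dusp1, Zfp36 and Nr4a1 were at -0.85, 0.03 and 0.36, with 95% intervals from -1.72 to 0.02, from -0.51 to 0.56 and from -0.17 to 0.90. The median over the 29 genes was 0.23. Of all genes 5.27% were higher and 5.49% lower with limma, and 12.5% and 15% at an unadjusted p under 0.05. These shares belong beside every list count here and below. For exact permutation the share of all genes was not counted.

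Among 17 other bZIP genes, the family of factors with the same zipper, 3 were higher and none lower (4 and 1 at an unadjusted p under 0.05, 3 and 0 by exact permutation). These were Maff, which is on both lists, Atf3, a stress-induced partner of Jun, at 1.67 ± 0.23 (SE, limma adjusted p = 0.001), and the small Maf gene Mafk at 1.003 ± 0.15 (SE, adjusted p = 0.00179). In each of the 3 all HCC lay above all normal livers (4.25% of all genes did), but they were picked for passing on these same arrays.

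Upstream of the family, none of 7 genes for serum response factor and its cofactors passed with limma (1 at an unadjusted p under 0.05, 0 by exact permutation). Elk1 came closest, at 1.10 (limma adjusted p = 0.0579), and passed without normal 2 or without normal 4. Of 14 kinase genes of the MAP kinase routes, 2 were higher and none lower (3 and 2 at an unadjusted p under 0.05, and 3 and 1 by exact permutation). Of all genes 5.27% were higher and 5.49% lower, and 12.5% and 15% at an unadjusted p under 0.05. Map3k1, a kinase above JNK, was at 1.01 ± 0.23 (SE, limma adjusted p = 0.0154). Rps6ka3, which encodes the ERK-activated kinase RSK2, was at 0.62 (adjusted p = 0.0358) and lost its call without HCC 2, 4, 5 or 6 or normal 2, 4, 5 or 6. Without dim probe sets 2 genes of the list were lower. The transcript level of a kinase gives no measure of its activity.

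Of 9 genes for inhibitors, cofactors and turnover of AP-1 and Egr1, 2 were higher and none lower (3 and 1 at an unadjusted p under 0.05, 3 and 0 by exact permutation). Cdkn2a, which encodes inhibitors of the cell cycle, averaged 7.24 ± 0.66 in HCC, against 5.31 ± 0.63 in normal liver (SD, n = 6 each), a log2 difference of 1.94 (limma adjusted p = 0.00477). It was dim, with deposited intensities from 74.0 to 322 in HCC and from 10.3 to 59.3 in normal liver. Nab2, a co-repressor of Egr1 that Egr1 itself induces, was at 0.72 (adjusted p = 0.0428), a call lost when 1 array was left out, except for HCC 4, HCC 6 and normal 3. Of 20 reported AP-1 target genes, 4 were higher and 1 lower. The collagenase gene Mmp13 averaged 7.98 ± 1.45 in HCC, against 5.39 ± 0.71 in normal liver (SD, n = 6 each), a difference of 2.59 (adjusted p = 0.0175). The metalloproteinase inhibitor Timp1 was at 2.002 (adjusted p = 0.0358, lost without HCC 1, 4 or 5 or normal 3, 4, 5 or 6) and cyclin D1 (Ccnd1) at 1.92 (adjusted p = 0.0102). Named after their values were seen, the EGF receptor ligand Hbegf was at 1.82 and ezrin (Ezr) at -1.15, with second probe sets at 0.52 for Hbegf and 0.44 for Ezr that did not pass. At an unadjusted p under 0.05, 8 of the 20 were higher and 1 lower (12.5% and 15% of all genes), and the median was 0.58. The number higher was 7 without HCC 2, 2 in arrays with Y-linked signal, and 0 in arrays without it or at a threshold of 0.01.

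Heat shock genes, which also answer fast to stress, gave no member past the limma test among 13 (1 higher and 0 lower at an unadjusted p under 0.05, 0 by exact permutation). Hsp90aa1 had the smallest p, at 0.43 (adjusted p = 0.215), with another probe set at -0.80. Of all genes 12.5% were higher and 15% lower at an unadjusted p under 0.05. The median over the list was 0.14. In the carcinomas the mean of the list relative to normal liver ran from -0.56 in HCC 5 to 0.65 in HCC 1, against -0.23 to 0.24 in normal livers, so the carcinomas lay on both sides of the normal mean.

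**Figure D4:**
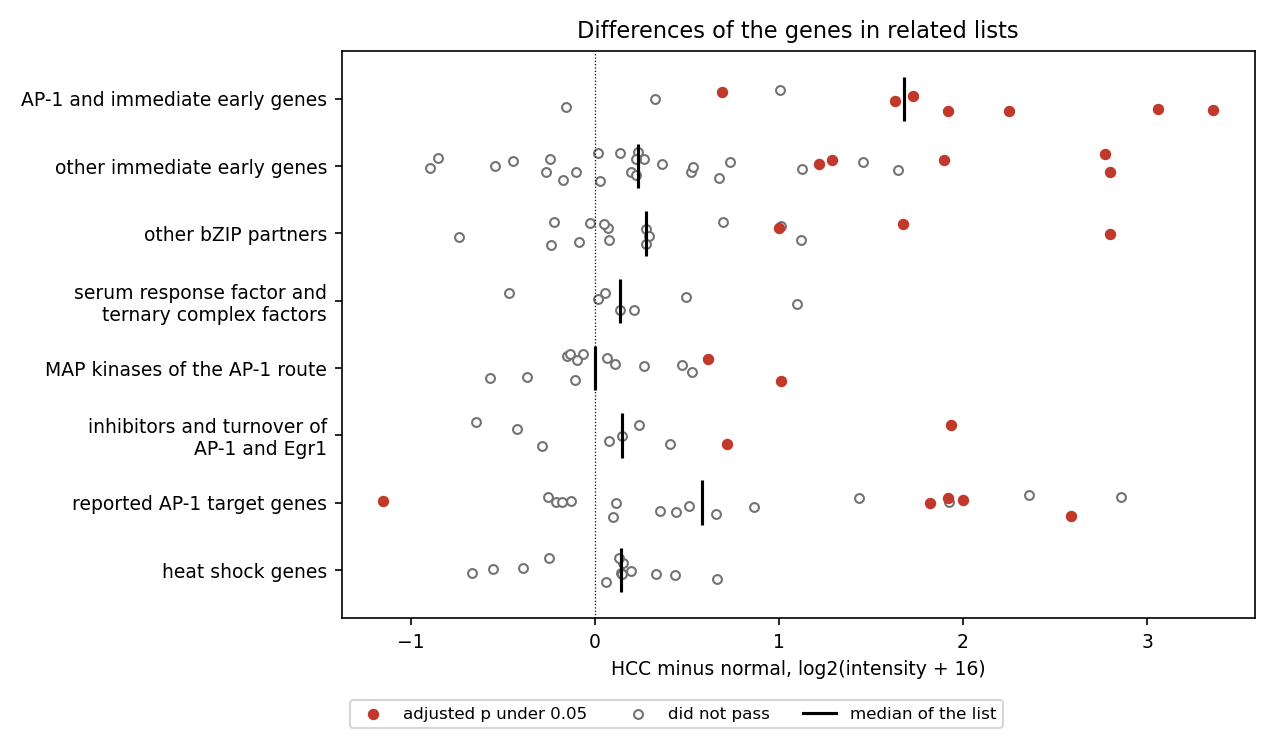
Log2 difference, HCC minus normal liver, of every measured gene in the 10-member family and 7 related lists, each point 1 gene by its brightest probe set (vertical scatter within a row has no meaning). Filled points passed the test and the black bar is the median. The median was 1.68 in the family and from 0.002 to 0.58 in the other lists. The family and the lists were chosen with earlier results of these data known, so this contrast is no independent test.

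Hepatocyte markers were high in both groups, with albumin (Alb, taken as a check of the tissue outside the naming rule) at 15.50 ± 0.086 in HCC, against 15.43 ± 0.10 in normal liver (SD, n = 6 each), and none of 8 passed with limma (0 higher and 2 lower at an unadjusted p under 0.05, 0 by exact permutation). Tyrosine aminotransferase (Tat) came closest, at -1.14 (limma adjusted p = 0.0503), and passed as lower in 11 of 27 other settings. The summed intensity of that list ran from 267512 to 388282 in HCC and from 277940 to 365035 in normal liver. Of 9 macrophage and Kupffer cell markers, Cd14, a lipopolysaccharide co-receptor, was higher at 3.21, and the Kupffer cell genes Clec4f and Timd4 were lower at -2.36 and -2.11. Clec4f did not pass by exact permutation (adjusted p = 0.0629), and at an unadjusted p under 0.05 2 of the list were higher and 3 lower (12.5% and 15% of all genes). The sum for these markers ran from 4914 to 28107 in HCC and from 6094 to 14740 in normal liver. Of 7 endothelial markers, Clec4g at -2.13 (its second probe set, at -0.34, did not pass) and Stab2 at -1.11 were lower. At an unadjusted p under 0.05 2 were higher and 2 lower, and the median was 0.05. Chosen after their values were seen, Pecam1 was at 1.38 and Cdh5 at 1.0 without passing (sums from 1636 to 5075 in HCC and from 4127 to 6937 in normal liver). Of 9 stellate cell and fibroblast markers, Lrat was lower at -2.52, while the median of the list was 0.93 and 6 of the 9 lay above 0. At an unadjusted p under 0.05 3 were higher and 2 lower. Chosen after their values were seen, Col1a1 was at 3.27, Col3a1 at 1.68 and Reln at 1.14 without passing (sums from 9492 to 79982 in HCC and from 9578 to 14847 in normal liver). Clec4g lost its call without HCC 4 or normal 2, 3 or 5, and Stab2 without normal 2, 3, 5 or 6. The other named markers past the test held without any 1 array.

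No marker passed with limma among 7 of neutrophils (sums from 673 to 4784 in HCC and from 534 to 1139 in normal liver), 8 of T and NK cells (389 to 1164 in HCC and 278 to 522 in normal liver), 5 of B and plasma cells (512 to 3561 in HCC and 452 to 2199 in normal liver) or 5 of cholangiocytes (247 to 1137 in HCC and 425 to 659 in normal liver). At an unadjusted p under 0.05 there was 1 neutrophil and 1 T and NK cell marker, both higher, and by exact permutation there were 0. The markers with the smallest p were S100a9 at 0.97, Nkg7 at 0.77, Ms4a1 at -0.43 and Cftr at 0.74. No defining marker was listed at 0, but 6 of the 8 T and NK cell markers were below a log2 level of 7 in both groups. HCC 6, the highest carcinoma for most family members, also had the highest means for stellate cell and fibroblast markers (2.93 relative to normal liver, against -1.24 to 0.46 in the other carcinomas), neutrophil markers (1.34) and T and NK cell markers (1.04). Their part in the results was not tested. Without HCC 6 the log2 differences were 2.01 for Fos, 1.74 for Jun, 1.40 for Junb, 2.99 for Egr1 and 2.81 for Ier3, and all 5 still passed. The 3'/5' ratio of the Gapdh control probe sets, a measure of RNA integrity, averaged 0.736 ± 0.0385 over carcinomas and 0.745 ± 0.036 over normal livers, and that of beta-actin 1.49 ± 0.107 over carcinomas and 1.64 ± 0.113 over normal livers (SD, n = 6 each).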

How the data were processed

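RNA of 6 HCC and 6 normal livers was measured on 12 arrays, after TRIzol and column extraction with DNase and one-cycle biotin labelling of 1 microgram, per the labels' protocols. The intensity values, as deposited by the authors, are linear and have a 2% trimmed mean of 500 on every array. The sources used here do not give how probes were summarised. The number of arrays limits the precision.

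From these values, log2(intensity + 16) was quantile normalized over 45101 probe sets. The 64 controls were then left out and HCC was compared with normal liver by limma 3.58.1 (lmFit and eBayes, R 4.3.3), with two-sided p-values adjusted by Benjamini-Hochberg over 45037 probe sets and a threshold of 0.05. Of these, 34945 named 1 gene, 932 several and 9160 none in the platform annotation, whose symbols were updated by gene ID. A gene was represented by its brightest probe set over all arrays. The exact permutation test used the 924 assignments of 6 and 6. limma was tested on simulated data. Python 3.11.15 (pandas 2.3.3, matplotlib 3.10.9) drew the figures and searched RefSeq promoter windows.

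The members and lists were chosen with earlier results of these data known. Named genes were all members, and from each list the 3 largest differences past the test or else the smallest p, with Glul, the Y-linked genes and the control probe sets as context. Names outside this rule are marked where they appear. Both groups are numbered 1 to 6, but arrays of one number deviated together little (correlations between -0.0177 and 0.0636) and were not taken as pairs. Alternatives were other pseudocounts, scalings, filters, variance models, array weights, the replicate block, exact permutation, 1 value per gene, the Y-linked level, a stricter threshold and leaving out each array.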

Additional observations from a re-analysis of the deposited data

Results flagged for a closer look

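With 28 groups of 6 arrays tested for a single value far from the other 5 (14 probe sets in HCC and in normal liver), 3 were found, and chance alone flags about 5% of groups. Fosl2 by its brighter probe set was at a log2 level of 10.61 in HCC 6, with the next carcinoma at 9.01. Jun by its dimmer probe set was at 10.38 in HCC 3, with the next at 10.06, and its call held without any single array (adjusted p up to 0.00495). The dim second probe set of Jund was at 4.93 in HCC 6, below the next carcinoma at 6.003.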

How the results depend on the processing

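For the 14 probe sets of the family, 326 of 366 values under other settings kept their direction and their side of the threshold, 35 kept the direction but no longer passed, and 5 changed sign, none of them of a probe set past the test. The 5 were Fosb without HCC 3 (0.085), without HCC 5 (0.029) and in arrays without Y-linked signal (0.85), and the dimmer Fosl2 probe set with the deposited scaling (0.032) and in arrays without Y-linked signal (0.25). Leaving out 1 array gave Fosb from -0.394 to 0.085. Ier2 lost its call in 19 of 27 settings (adjusted p up to 0.813). For the other named genes 662 of 775 values were on the same side, 98 no longer passed and 15 newly passed. The higher probe sets of the family numbered 8, and 2 in arrays with Y-linked signal, 5 at a threshold of 0.01 and 0 in arrays without Y-linked signal, a split added after the data were seen; the genes numbered 7, and 1, 4 and 0 in the same settings. These splits hold fewer arrays. With the replicate block 6 probe sets and 5 genes were higher (Junb and Ier2 lost), but equal numbers do not mark pairs here. The deposited scaling put 61.2% of calls on the higher side, against 52.5% in the reported fit, and moved the median of all probe sets to 0.028 from -0.021. Leaving out 1 array gave 7 or 8 probe sets and 6 or 7 genes.

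Over all probe sets 1971 were higher and 1780 lower in HCC. The replicate block gave 1159 and 926, arrays with Y-linked signal 817 and 664, arrays without it 7 and 3, and a threshold of 0.01 788 and 555. Adjusted over genes, 1 probe set per gene gave 1179 higher and averaging the probe sets of each gene 1020 higher and 1160 lower, from fewer features. Leaving out 1 array gave from 1384 to 2017 higher and from 1128 (without normal 5) to 1935 lower. Of the related lists, other immediate early genes had from 4 to 6 higher when 1 array was left out and 8 with averaged probe sets or without dim ones (1 was lower without HCC 1), and 1 other bZIP gene was lower with averaged probe sets. MAP kinase genes had 0 higher with the replicate block, in either Y-linked subset or at 0.01 and 1 with averaged probe sets, and 2 lower without dim probe sets and 1 by exact permutation, with 1 probe set per gene, with averaged probe sets or without normal 2. The inhibitor list had 1 higher with a pseudocount of 4, the block, the Y-linked covariate, arrays with Y-linked signal or 0.01. In arrays without Y-linked signal none of these lists had a gene higher. Elk1 passed in 4 settings and Tat in 11, and Ezr lost its call with averaged probe sets. How far each value is limited by signal over background was not measured, since no detection calls were used.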

Other observations

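Several genes of the related lists had large differences in HCC that did not pass, and are given here as values chosen after they were seen. The macrophage elastase gene Mmp12 averaged 8.75 ± 2.02 in HCC, against 5.89 ± 1.20 in normal liver (SD, n = 6 each), a log2 difference of 2.86 (limma adjusted p = 0.056). Metallothionein 2 (Mt2) was at 2.36 (adjusted p = 0.0881), the stress-response gene Gadd45b at 1.65 (adjusted p = 0.0538) and the zinc finger factor Klf4 at 1.46 (adjusted p = 0.0843). Collagen Col1a1 averaged 9.24 ± 2.38 in HCC, against 5.97 ± 1.14 in normal liver (adjusted p = 0.0515). In each of these 5 the SD among carcinomas was larger than that among normal livers.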
